A study of Mus musculus with 18 samples.

Results

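The transcripts described here encode the nuclear subunits of the oxidative phosphorylation system, grouped by complex I to V. A member was a non-control array probe whose gene name in the array files begins with Nduf followed by A, B, C, S or V and a digit, is Sdha to Sdhd or Cyc1, or begins with Uqcr, Cox4 to Cox8 or Atp5. That gave 113 of 39429 probes and 84 of 31709 genes, with 37 genes in complex I, 4 in complex II, 8 in complex III, 19 in complex IV and 16 in complex V. The rule used names alone and no measured value. It also takes in 3 names that are no subunit, Cox4nb (now Emc8, of an endoplasmic reticulum membrane complex), Atp5s (now Dmac2l) and Atp5sl (now Dmac2), and it leaves Ndufa4, which is now known as a subunit of cytochrome c oxidase, under complex I.

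RNA was taken from the livers of male C57BL/6J mice that ate a high-fat diet for 5 weeks from the age of 8 weeks and were 13 weeks old at the end. The linseed group (LINdiet, 8 mice) had linseed oil, with 66.7% polyunsaturated, 22.5% monounsaturated and 9.7% saturated fatty acids and 49.7% ALA, the n-3 fatty acid alpha-linolenic acid. The palm group (PALMdiet, 10 mice) had palm oil, with 55.6% saturated, 34.8% monounsaturated and 8.8% polyunsaturated fatty acids. Both diets gave 51.1% of energy as lipid, 32.1% as carbohydrate and 16.7% as protein, so the comparison is between 2 fats at the same share of energy. Each mouse has 1 Agilent array read in 1 colour, and 18 arrays were used. The hepatocyte markers (7 of 7, among them the albumin gene Alb) were well above background on all 18 arrays.

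Oxidative phosphorylation is the last stage of the burning of fuels in mitochondria. Complexes I and II pass electrons from NADH and succinate to coenzyme Q, complex III passes them on to cytochrome c, and complex IV, cytochrome c oxidase, passes them to oxygen. Complexes I, III and IV pump protons across the inner membrane, and complex V, the ATP synthase, makes ATP as the protons flow back. Most subunits are encoded in the nucleus and a few in the mitochondrial genome. In liver this chain takes up the electrons released by the oxidation of fatty acids, and several nuclear factors, among them NRF1, GABP (also called NRF2), YY1 and the estrogen-related receptors, are known to act at promoters of its genes.

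Promoter sequences of some members are shown as background, and no motif was related to any level measured here. The RefSeq promoter table (build GRCm38.p6, 250 bases before to 50 bases after each annotated start) holds 67 of the 84 members. Per complex, 1 stretch of the 170 bases before the start is given, 5′ to 3′, from the member with the smallest p-value among those with a match inside that stretch to any of 5 motifs, and matches are in capitals. The stretches are those of Ndufs5 (chr4:123718187-123718356, minus strand), an accessory subunit of complex I, Sdha (chr13:74350241-74350410, minus strand), the flavoprotein of complex II, Uqcr11 (chr10:80406822-80406991, minus strand; Uqcr in the array files), a small subunit of complex III, Cox6a1 (chr5:115348959-115349128, minus strand), the common form of a complex IV subunit, and Atp5c1 (chr2:10080433-10080602, minus strand), the gamma subunit of complex V.
Ndufs5: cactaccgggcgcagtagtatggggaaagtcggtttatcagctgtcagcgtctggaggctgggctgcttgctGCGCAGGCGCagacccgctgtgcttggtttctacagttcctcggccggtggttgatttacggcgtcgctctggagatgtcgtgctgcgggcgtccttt
Sdha: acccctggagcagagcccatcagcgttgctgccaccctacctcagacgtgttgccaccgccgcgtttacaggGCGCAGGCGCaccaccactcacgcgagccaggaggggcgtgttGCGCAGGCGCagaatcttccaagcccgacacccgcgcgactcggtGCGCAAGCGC
Uqcr11: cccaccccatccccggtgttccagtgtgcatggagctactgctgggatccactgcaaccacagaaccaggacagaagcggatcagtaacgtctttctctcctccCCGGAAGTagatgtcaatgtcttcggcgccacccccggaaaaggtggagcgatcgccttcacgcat
Cox6a1: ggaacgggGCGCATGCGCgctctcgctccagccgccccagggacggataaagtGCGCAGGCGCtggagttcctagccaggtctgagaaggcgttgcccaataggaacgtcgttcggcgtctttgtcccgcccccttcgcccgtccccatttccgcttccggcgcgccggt
Atp5c1: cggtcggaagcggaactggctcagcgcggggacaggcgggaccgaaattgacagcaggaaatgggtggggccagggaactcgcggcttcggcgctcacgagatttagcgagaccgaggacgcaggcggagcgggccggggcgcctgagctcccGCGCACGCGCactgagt
The capitals are NRF1 matches (GCGCA and GCGC with any 1 base between) in Ndufs5, Sdha, Cox6a1 and Atp5c1 and a GABP match (CCGGAAGT) in Uqcr11. Sdha holds 3 NRF1 matches, whose first bases lie 98, 55 and 10 bases before the start, and Cox6a1 holds 2, at 162 and 117 bases.

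Over the whole 300-base windows, searched on both strands, NRF1 matches were present in 17 of 67 members (25.4%) against 5.19% of 27025 genes in the table. The YY1 motif AAGATGGCG was present in 8 of 67 members (11.9%) against 1.64% of genes, the GABP motif in 5 (7.46%) against 4.31%, and the ERR motif TCAAGGTCA in 2 (2.99%) against 126 of 27025 genes. The PPAR motif (AGGTCA repeated after any 1 base) was found in 0 of 67 members and in 0.0481% of genes. In all, 28 of 67 members held a match to at least 1 of the 5 motifs, with Dmac2, which is no subunit, among them. The share of all genes with any match is not given, so this count has nothing to be set against. The motifs can overlap on a promoter, and a match is a string of letters, not a measured binding site.

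Between the 2 diets, transcripts of the oxidative phosphorylation subunits differed little, and 0 of the members passed the test. Levels are log2 signals relative to the 75th percentile of their array, and differences are linseed minus palm on that scale with standard errors from limma. Spots that the image software marked as uneven or as outliers were treated in 2 ways. With these spots left out, 60 members could be tested, and 0 were called at an adjusted p under 0.05, where 121 of 15951 genes tested (0.759%) were called. With these spots kept, 81 members could be tested, and 0 were called against 149 of 16544 genes (0.901%). Both shares of all genes are so small that 0 called lies near them and is by itself no result about the members. At an unadjusted p under 0.05 in limma, 3 of 60 members stood apart (10.2% of all genes did), all 3 higher on linseed (6.01% of all genes were). With marked spots kept it was 6 of 81 (10.6% of all genes), all 6 higher on linseed (6.33% of all genes). In 0 of 81 members were the 2 groups free of overlap (0.224% of all genes), which is near that share too. These counts moved with single arrays, from 1 without linseed 3 to 16 without linseed 1 of 60 members, and from 3 without linseed 5, palm 5 or palm 8 to 21 without linseed 1 of 81. They moved with the scaling too, to 0 of 60 and 0 of 81 with the 75th percentile over unmarked spots, to 7 of 60 and 10 of 81 after median scaling, and to 11 of 81 in the authors' deposited table. The share of all genes is not given for these changed settings, so the counts there are no result about the members. The other 3 members, Cox7b2, Cox8b and Cox8c, were not well above background on enough arrays to be tested.

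The differences were small and mostly of one sign. With marked spots left out the median difference of the 60 members was 0.09, a fold of 1.06, and 51 (85.0%) were above 0, beside a median of -0.004 and 48.7% above 0 over all genes tested. With marked spots kept the median of the 81 members was 0.09, a fold of 1.07, and 70 (86.4%) were above 0, beside 49.4% of all genes. Members share arrays and move together on them, so these shares do not count independent observations, and no test was made of them. Markers of hepatocytes lay on the same side, with 6 of 7 above 0 and a median of 0.10, but the other was at -0.28 and the highest at 0.18. Among the arrays where the members were lowest or highest, palm 8 went the other way. On palm 8, where the members were lowest, the mean level of hepatocyte markers was 7.70, the highest of the palm arrays. On linseed 1 and palm 5, where the members were also low, it was 7.11, the lowest of all arrays, and 7.30. On linseed 3 and linseed 5, where the members were highest, it was 7.72 and 7.61. The medians of this level were 7.60 on linseed and 7.48 on palm. Markers of other cell types lay mostly on the other side, with medians of -0.12 for Kupffer cells and macrophages (1 of 7 above 0), -0.16 for neutrophils (0 of 5), -0.14 for lymphocytes (0 of 3), -0.26 for cholangiocytes (0 of 3), -0.12 for erythroid cells (1 of 5) and -0.20 for pancreas acinar cells (0 of 3). Single palm arrays stood out in some of these lists. The mean level of acinar markers was 1.03 on palm 1 and -3.21 or lower on all other arrays. That of neutrophil markers was -0.43 on palm 3 and -1.82 or lower elsewhere, and that of cholangiocyte markers -1.73 on palm 8 and -2.55 or lower elsewhere. Markers of stellate cells (3 of 6 above 0, median -0.08) and endothelial cells (3 of 6, 0.004) were divided, and those of adipocytes lay above 0 (3 of 3, median 1.10). The part of the cell makeup in the members' shift was not tested. The share also moved with the scaling. It was 93.3% after median scaling and 70.0% when the 75th percentile was taken over unmarked spots, with marked spots left out, and these scalings moved the median of all genes by 0.04 and -0.04. For the 73 tested members other than tissue isoforms and the names that are no subunit, every 95% interval lay between -0.5 and 0.5 on the log2 scale with marked spots kept. In whole liver, fewer cells of a type and less RNA per cell cannot be told apart.

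**Figure D1:**
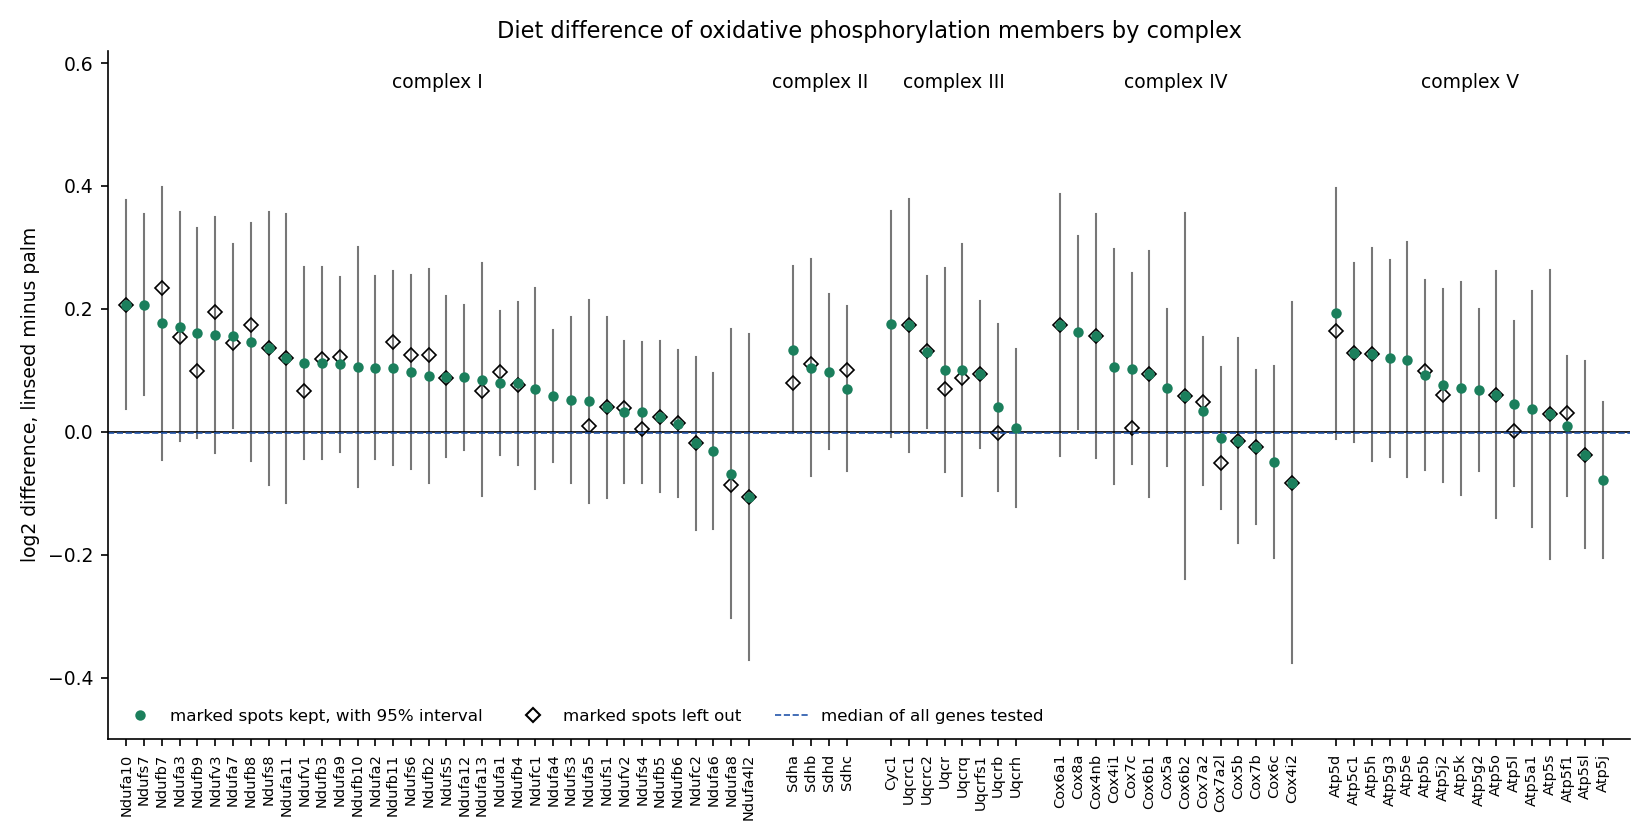
Log2 difference between diets (linseed minus palm, y axis) of 78 members by complex (x axis), with marked spots kept (filled circles, with 95% intervals from limma) and left out (open diamonds, where tested). Of these, 67 lie above 0 and the intervals of 5 exclude 0; Cox6a2 and Cox7a1, at 1.03 and 0.38, are not drawn.

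In complex I, which takes electrons from NADH, 33 of 37 tested members had a difference above 0 with marked spots kept, and the median was 0.09. With marked spots left out it was 26 of 29, with a median of 0.10. The values in the next paragraphs are with marked spots kept unless stated. Ndufs7, a core subunit that carries the last iron-sulfur cluster before coenzyme Q, had the smallest adjusted p of all members. Its probe lies at chr10:79719478-79719537 on the plus strand (mm9, the build of all probe positions here). Its level was 5.99, 6.27 and 6.43 (lowest, median and highest) on linseed and 5.87, 6.05 and 6.24 on palm, with 11 of 18 values from marked spots only, and it had too few unmarked spots to be tested without them. The linseed values were mostly the higher, but the ranges overlap from 5.99 to 6.24. The difference was 0.21 ± 0.07 (SE, n = 8 and 10), a fold of 1.15, with an adjusted p of 0.25 in limma, and 0.0955 at the lowest, without linseed 8.

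Ndufa10, an accessory subunit of complex I (probe at chr1:94361039-94363996, minus strand), was at 3.40, 3.58 and 3.91 on linseed and at 3.13, 3.46 and 3.59 on palm. Palm 5 and palm 8 stood apart from the other palm arrays, both at 3.13. The difference of Ndufa10 was 0.21 ± 0.08 (limma adjusted p = 0.337).

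Other complex I subunits differed less or varied more. Ndufa7 (an accessory subunit, outside the naming rule and chosen after its values were seen because it is among the 6 members with an unadjusted p under 0.05) differed by 0.16 ± 0.07, and with marked spots left out by 0.14 ± 0.09. Ndufb7, a membrane-arm subunit, ranged from 5.69 to 6.61 on linseed and from 5.67 to 6.14 on palm, with a difference of 0.18 ± 0.11. Ndufv1, which binds NADH, had medians of 6.51 and 6.39 and a difference of 0.11 ± 0.07. Ndufs1, the largest core subunit, had medians of 4.77 and 4.70 and a difference of 0.04 ± 0.07, whose 95% interval is a fold of 0.93 to 1.14. Ndufa4 was at 5.74 to 5.96 on linseed and 5.64 to 5.88 on palm (0.06 ± 0.05). Its relative Ndufa4l2, which is known as a target of hypoxia signalling, had the lowest difference of all members, -0.11 ± 0.13. The ranges of Ndufa4l2, -1.45 to -0.57 on linseed and -1.38 to -0.43 on palm, overlap for the most part.

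In complex II, succinate dehydrogenase, which is also an enzyme of the citric acid cycle, the 4 members had differences of 0.07 to 0.13. Sdha (probe at chr13:74460310-74460369, minus strand) was at 4.75, 4.86 and 5.00 on linseed and at 4.55, 4.74 and 4.99 on palm, and differed by 0.13 ± 0.06 (limma adjusted p = 0.482). The palm range of Sdha holds nearly the whole linseed range, with palm 6 at the top and palm 5 and palm 8 at the bottom. Sdhb, the iron-sulfur subunit, differed by 0.10 ± 0.08, and its 2 probes gave 0.10 each. The membrane anchors Sdhc and Sdhd differed by 0.07 ± 0.06 and 0.10 ± 0.06. All but 1 of the 18 values of Sdhd came from marked spots, so it was tested only with these kept. Sdhd was higher on linseed within each of the 5 slides, as were 7.13% of all genes.

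In complex III, 8 of 8 tested members had a difference above 0, from 0.006 for Uqcrh, the hinge subunit, to 0.18 for Cyc1. Cyc1, the cytochrome c1 that hands electrons to cytochrome c (probe at chr15:76175938-76175997, plus strand), was at 5.92, 6.29 and 6.68 on linseed and at 5.88, 6.09 and 6.24 on palm. On linseed 3, 4, 6 and 7 it lay above the palm range and on linseed 1 near its lower end, and the difference was 0.18 ± 0.09 (limma adjusted p = 0.502). Uqcrc2, a core protein with an unmarked spot on each array (probe at chr7:127802599-127802658, plus strand), was at 5.63, 5.82 and 5.91 and at 5.49, 5.68 and 5.84, and differed by 0.13 ± 0.06 (limma adjusted p = 0.446). Its partner Uqcrc1 differed by 0.17 ± 0.10 and the Rieske iron-sulfur protein Uqcrfs1 by 0.09 ± 0.06. For each of these 4 genes the lowest palm array was palm 5 or palm 8.

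In complex IV, 11 of 16 tested members had a difference above 0 and the median was 0.08. With marked spots left out it was 8 of 12, with a median of 0.05. The nuclear subunits Cox4i1 and Cox5a, which surround the mitochondrially encoded core, differed by 0.11 ± 0.09 and 0.07 ± 0.06. Cox4i1 was at 7.01, 7.41 and 7.91 on linseed and at 7.23, 7.31 and 7.49 on palm, so that the linseed arrays held both the lowest and the highest value, on linseed 1 and linseed 3. Cox8a, the ubiquitous form of the smallest subunit (probe at chr19:7289652-7289708, minus strand), was at 7.35, 7.62 and 7.91 and at 7.15, 7.50 and 7.59. Its difference was 0.16 ± 0.07 (limma adjusted p = 0.452), with 11 of 18 values from marked spots. Cox6a1 differed by 0.17 ± 0.10 and Cox6b1 by 0.09 ± 0.10. Cox7a2, Cox7b and Cox7a2l (known as a supercomplex assembly factor) lay at 0.03 ± 0.06, -0.03 ± 0.06 and -0.01 ± 0.06. The name that is no subunit, Cox4nb, differed by 0.16 ± 0.09.

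In complex V, 14 of 16 tested members had a difference above 0, and the median was 0.07. The catalytic head is built of alpha and beta subunits. Atp5a1, the alpha subunit, was at 6.10, 6.35 and 6.53 on linseed and at 5.80, 6.33 and 6.52 on palm, where palm 8 stood apart, and it differed by 0.04 ± 0.09. Atp5b, the catalytic beta subunit (probe at chr10:127527255-127527314, plus strand), was at 7.31, 7.60 and 7.76 and at 7.23, 7.56 and 7.59, and differed by 0.09 ± 0.07. On linseed 2, 3, 5 and 7 Atp5b lay above all palm arrays, and on linseed 1 and linseed 4 below most of them. Of the central stalk, Atp5c1 (gamma) differed by 0.13 ± 0.07 and Atp5d (delta) by 0.19 ± 0.10, from ranges of 5.08 to 5.96 on linseed and 5.15 to 5.58 on palm (limma adjusted p of 0.508 for Atp5d). Atp5g3, a gene of the proton-carrying c ring, differed by 0.12 ± 0.08, and Atp5h, of the peripheral stalk, by 0.13 ± 0.08.

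**Figure D2:**
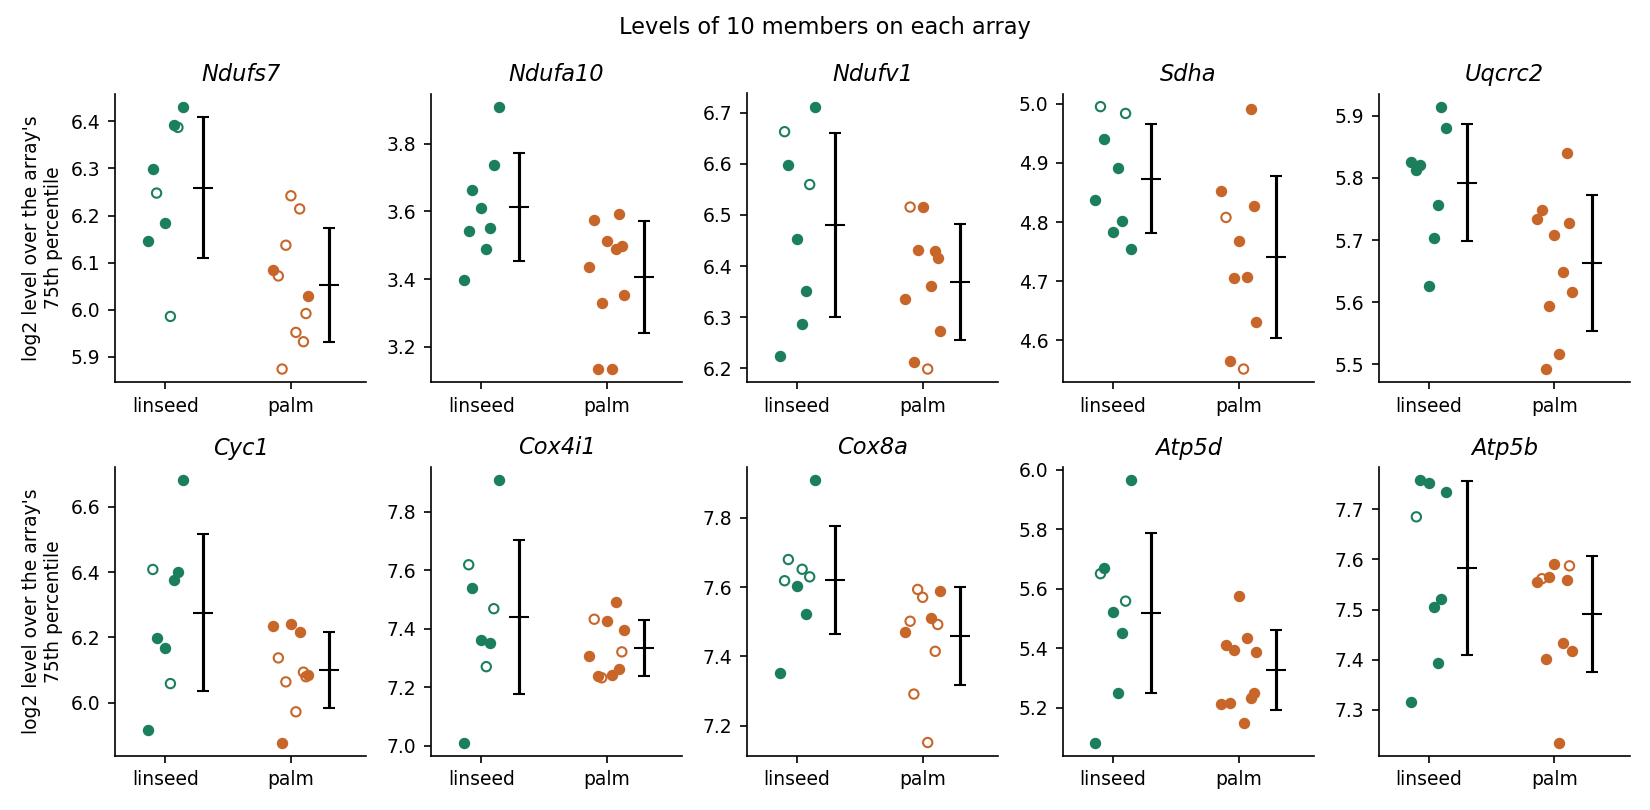
Level of 10 members on each array (y axis, log2 over the array's 75th percentile; each panel has its own scale) on the 2 diets (x axis), with points for arrays, open where every spot of the probe was marked, and bars for the mean and SD (n = 8 and 10). In each panel the linseed and palm points overlap.

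The members moved together on single arrays more than between diets. Each member's deviation from its own mean over the 18 arrays was taken with marked spots kept, and the median over members was read per array. On palm 8 it was -0.23, with 3 of 81 members above their own mean, on palm 5 it was -0.18 with 4 of 81, and on linseed 1 it was -0.18 with 13 of 81. At the other end it was 0.25 on linseed 3 (66 of 81 members above their mean) and 0.15 on linseed 5 (74 of 81). The median of all genes on these arrays lay between -0.04 and 0.03. On palm 8 the medians of complexes I to V were -0.23, -0.25, -0.21, -0.21 and -0.26, and on linseed 5 they were 0.14, 0.16, 0.13, 0.13 and 0.18, so that the complexes lay close to each other. Complex II, with 4 members, lay away from others on some arrays. It was at -0.03 on linseed 1 and 0.06 on linseed 3, where complex I was at -0.15 and 0.29, and at 0.16 on palm 6, where complex IV was at -0.08. On palm 3 it was at -0.14, below the other complexes (-0.03 to 0.02).

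Grouped by diet, the array medians ranged from -0.18 to 0.25 on linseed (mean 0.05, SD 0.13, n = 8) and from -0.23 to 0.04 on palm (mean -0.04, SD 0.09, n = 10), and the groups overlap. Linseed 3 was the highest linseed array for 44 of the 81 members and linseed 1 the lowest for 47. Among palm arrays, palm 8 was the lowest for 44 members and palm 5 for 25. Single arrays moved the number of members at an unadjusted p under 0.05 in limma. Beside the values given above, it was 5 of 60 without linseed 8 or palm 2 and 10 of 81 without linseed 8. Without slide 1 it was 1 of 60 and 2 of 81, and without slides 4 and 5 it was 3 of 81. The share of all genes is not given for these fits either. In none of these was a member called after adjustment, and the smallest adjusted p-values without linseed 1 were 0.143 and 0.129.

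**Figure D3:**
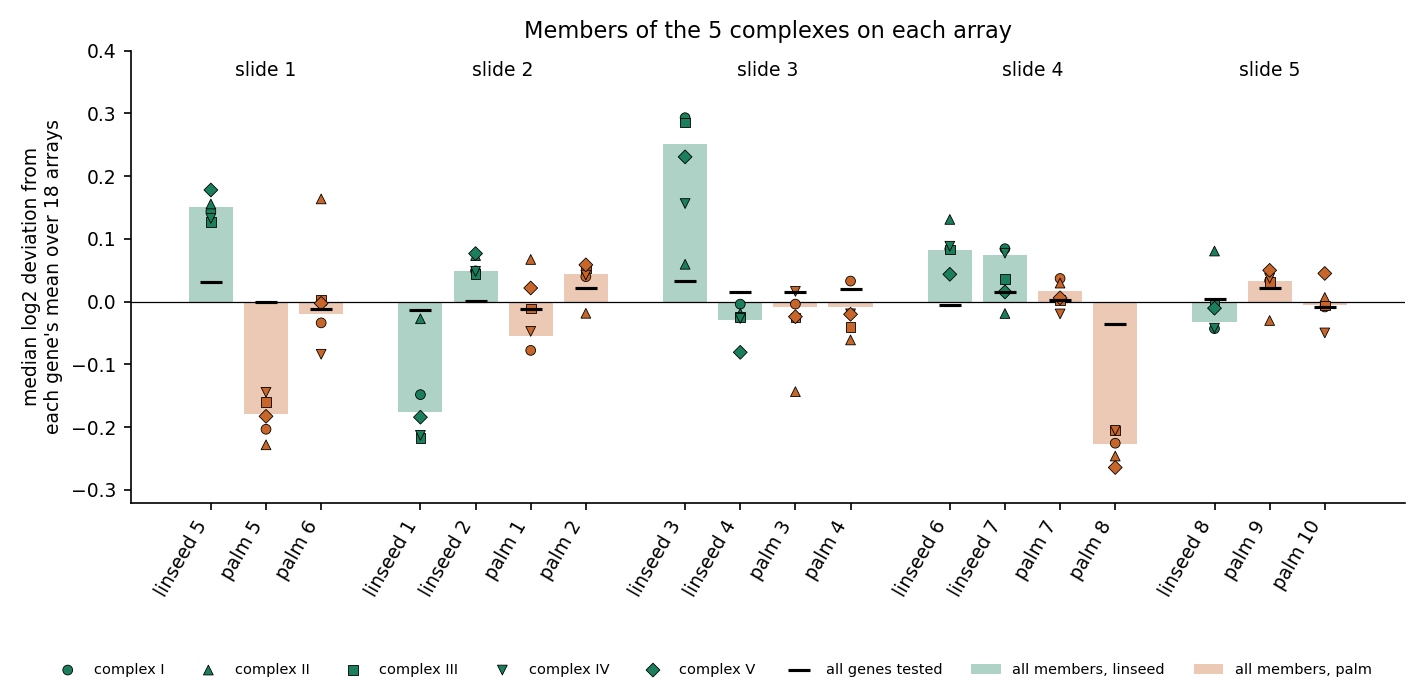
Median log2 deviation of the members from their own means over 18 arrays (y axis), for each array (x axis, grouped by slide), with marked spots kept. Bars are all 81 members, symbols the 5 complexes and black dashes all genes tested; green is linseed and orange palm. Palm 8, palm 5 and linseed 1 lie lowest and linseed 3 highest, and complex II lies away from others on linseed 1, linseed 3, palm 3 and palm 6.

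The arrays lay on 5 slides, each with both diets, and the difference was not the same on each. The headers of the 3 arrays of slide 1 hold no slide barcode, and these were taken as 1 slide, as the names of their deposited files also place them. With marked spots kept, the median difference of the members was 0.26 on slide 1 (76 of 81 above 0), 0.11 on slide 3 (69 of 81) and 0.20 on slide 4 (79 of 81), but -0.06 on slide 2 (22 of 81) and -0.05 on slide 5 (25 of 81). The medians of all genes on slides 1 to 5 were 0.05, -0.02, 0.01, 0.02 and -0.02. The low arrays palm 5, linseed 1 and palm 8 lie on slides 1, 2 and 4, and each slide holds 1 or 2 arrays of a diet. Higher on linseed within each of the 5 slides were 6 of 81 members (7.41%), against 7.13% of all genes. These were Ndufa10, Ndufs5, Sdhd, Uqcrc2, Uqcrfs1 and Atp5c1. Lower within each were 0 members, against 5.75% of all genes. Ndufs7 was higher within 4 slides and lower on slide 5 (-0.08). With slide as a block the median of all members was 0.10 with marked spots left out and 0.09 with them kept, and 0 members were called.

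Marked spots weigh more on these genes than on most. Of the 122 member spots of an array, between 2 (1.64%) and 64 (52.5%) were marked, against 0.55% to 3.82% of all other spots. On slides 4 and 5 the share of member spots was 37.7% to 52.5%, and on slides 1 to 3 it was 1.64% to 23.8%. The members are bright, and among other genes' spots at or above the median level of the member spots on the same array, 54.0% to 65.9% were marked on slides 4 and 5 and 3.43% to 21.7% on slides 1 to 3. Member spots at or above that level were marked at 57.4% to 78.7% on slides 4 and 5 and at 1.64% to 37.7% on slides 1 to 3. The medians of the marked share were 13.1% in the linseed group and 23.0% in the palm group, with ranges of 1.64% to 51.6% and 8.20% to 52.5%. Leaving these spots out removed 21 members from the test, among them Atp5a1, Cox4i1, Cox5a, Cyc1 and Ndufs7. With marked spots kept, those 21 had a median difference of 0.07 and 18 were above 0. Of the 60 members tested both ways, 50 were read from the same probe in both, and all 50 had the same sign, with a difference that moved by at most 0.06. The other 10 were read from another probe once marked spots were kept. Of these, 9 had the same sign, and the move reached 0.10 for Cox7c, a small complex IV subunit.

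**Figure D4:**
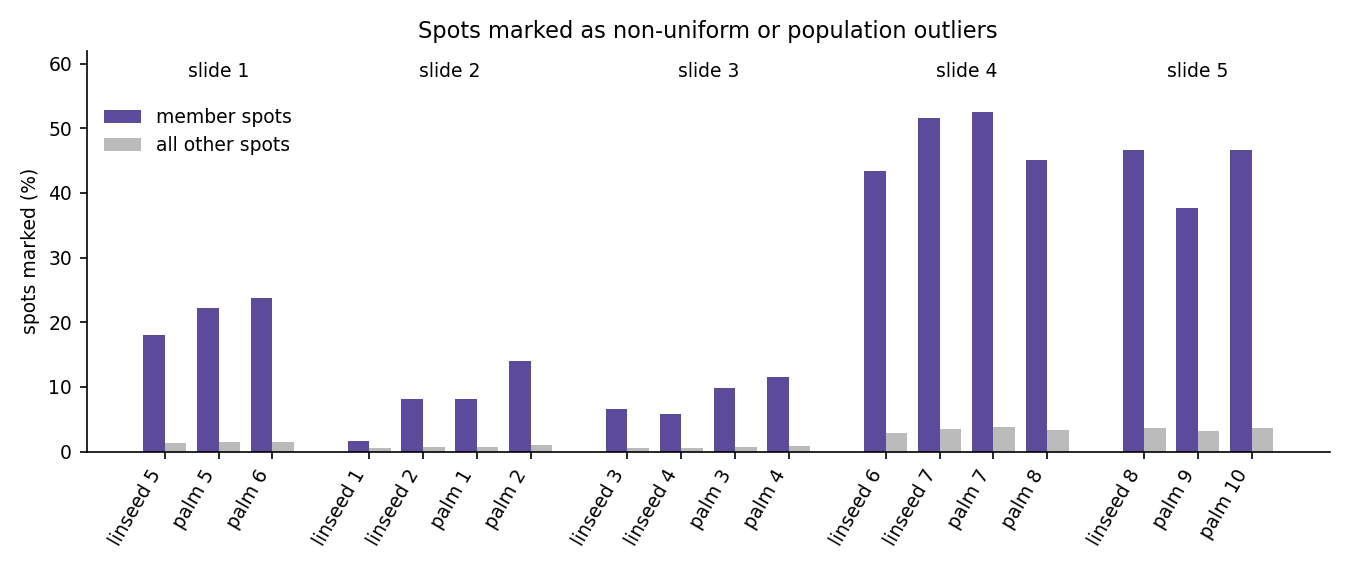
Share of spots marked as non-uniform or population outliers (y axis, percent) on each array (x axis, grouped by slide), for the 122 member spots and for all other non-control spots. Member spots on slides 4 and 5 were marked at 37.7% to 52.5%, and on slides 1 to 3 at 1.64% to 23.8%.

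Complex IV has isoforms known from other tissues, and these had the largest differences, carried by single arrays. Cox6a2, the heart and skeletal muscle form (probe at chr7:135349160-135349219, minus strand), was at 4.27 on linseed 6, -1.01 on linseed 7 and -0.83 on palm 2, and between -3.75 and -2.77 on the other 15 arrays. Its difference was 1.03 ± 0.82 (limma adjusted p = 0.719), and -0.24 without slides 4 and 5. The markers of striated muscle moved with it. Their mean level was 2.57 on linseed 6 (7 of 7 well above background), -2.41 on palm 2 (6 of 7) and -2.89 on linseed 7 (5 of 7), and on the other 15 arrays it was -4.60 or lower, with 0 to 3 of 7 well above background. Cox7a1, the form of heart, muscle and brown fat, was at 3.87 on linseed 6, 2.37 on linseed 3 and 0.45 to 2.05 elsewhere. Its difference was 0.38 ± 0.32, and -0.02 without linseed 6, linseed 7 and palm 2. The part of muscle RNA in these differences was not tested.

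Cox8b, a form of muscle and brown fat, was well above background on 7 of 18 arrays (4 linseed, 3 palm) and was not tested. It was highest on linseed 6 (3.69), linseed 3 (2.11) and palm 10 (0.28), and was at -1.74 or lower on the other arrays. Ucp1, the uncoupling protein of brown fat, was well above background on 4 arrays, at 2.22 on linseed 3, 0.69 on palm 10, -1.69 on linseed 6 and -3.32 on linseed 4. The mean level of the adipocyte markers was highest on linseed 3, linseed 6 and palm 10 (-0.06, -0.11 and -0.75, each with 6 of 7 well above background), and between -4.08 and -1.84 elsewhere, with 3 to 5 of 7. Linseed 3 is also the array with the highest median over all members. What part RNA of fat has in that was not tested. Without linseed 3 the median of all members was 0.06 in both treatments of marked spots.

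The remaining isoforms varied less. Cox4i2, a form known from lung, ranged from -2.25 to -1.56 on linseed and from -2.42 to -1.41 on palm (-0.08 ± 0.14). Cox6b2, a testis form, ranged from -1.94 to -1.35 and from -2.05 to -0.83, and the highest value, -0.83, was on palm 2, 1 of the 3 arrays with the most striated muscle markers (0.06 ± 0.14). All other arrays were at -1.35 or lower. Cox7b2 and Cox8c, both testis forms, were not well above background on any of the 18 arrays.

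**Figure D5:**
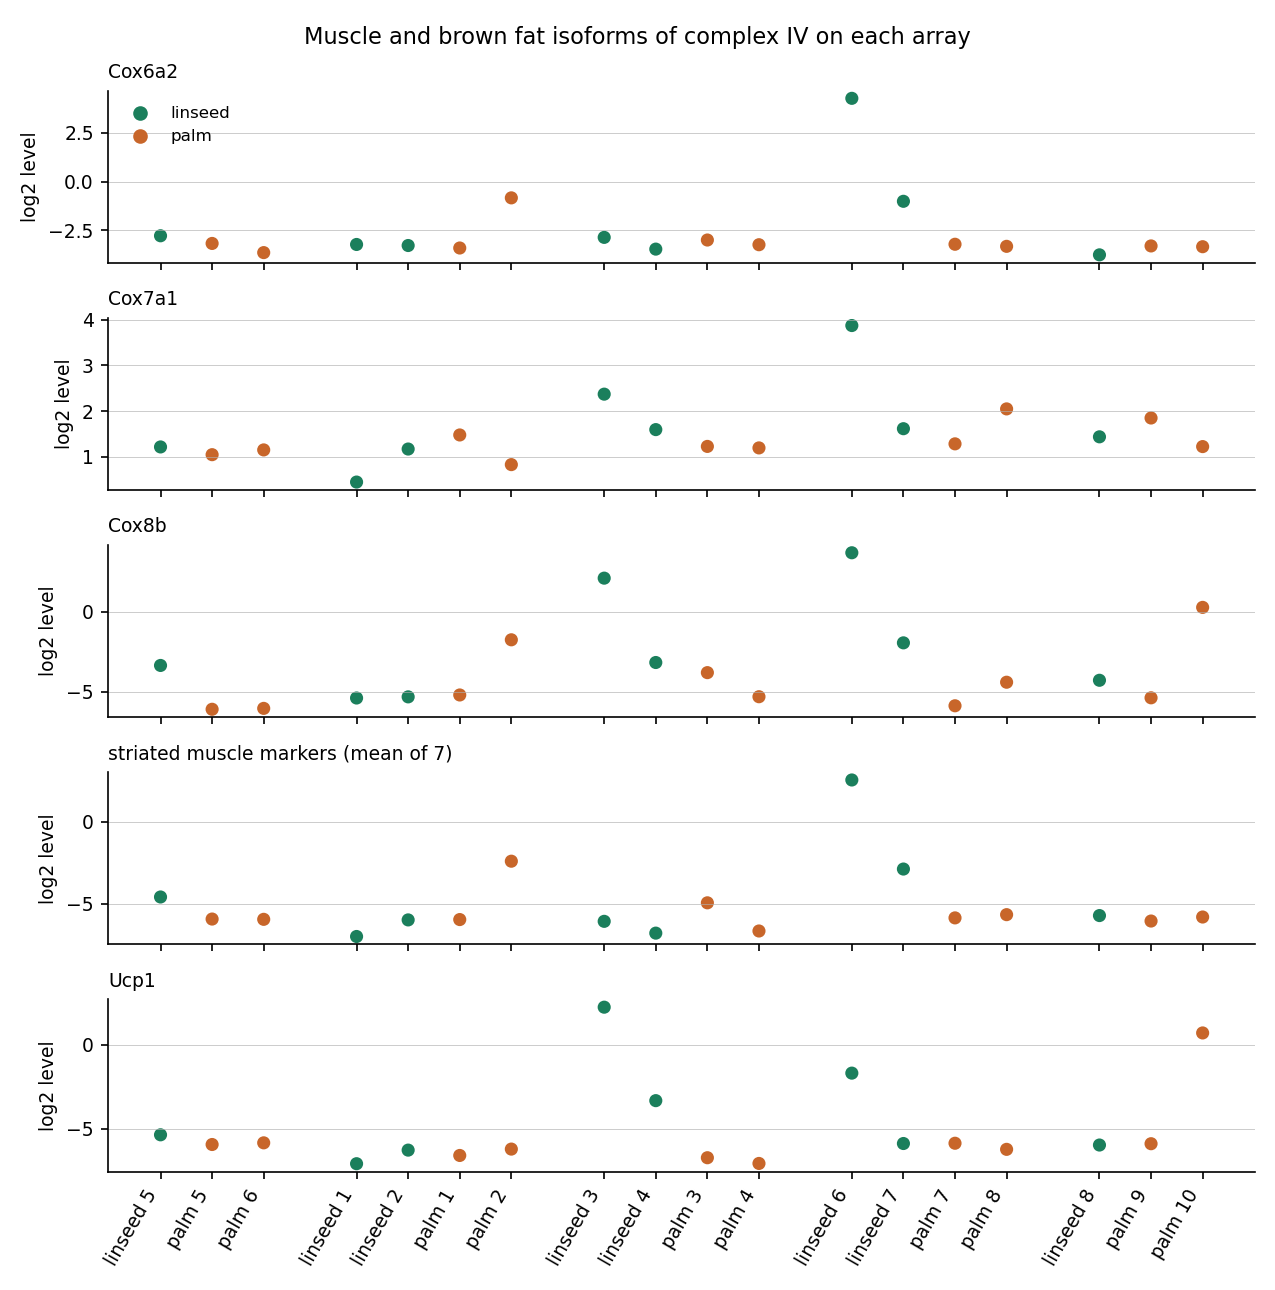
Levels (y axes, log2 over the array's 75th percentile) on each array (x axis, grouped by slide) of Cox6a2, Cox7a1 and Cox8b, of the mean of 7 striated muscle markers, and of Ucp1; green is linseed and orange palm. Low values of Cox8b, Ucp1 and the muscle markers include arrays not well above background. Cox6a2 and the muscle markers are highest on linseed 6, and Cox8b and Ucp1 are both high on linseed 3 and palm 10.

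For 22 members more than 1 probe was tested with marked spots kept, and probes of 6 of them differed in sign. The gamma subunit Atp5c1 gave 0.13 ± 0.07 from the probe at mm9 chr2:9977788-9980644 and -0.07 ± 0.27 from the probe at chr2:9977665-9977724. The 5 probes of Atp5l, of the ATP synthase membrane part, which overlap in part at chr9:44721315-44721483, gave -0.05 to 0.05. Uqcrq gave 0.10 and -0.02, Cox7a2l gave -0.05 to 0.02, Uqcrh gave -0.03 and 0.006, and Ndufb6 gave -0.005 and 0.01. Probes of the other 16 members had the same sign, and in Sdhb and Ndufb4 they differed by 0.001 and 0.003. Probe positions are those given in the array files.

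Genes that build and serve the complexes were read from 11 lists, in which 0 genes were called in either treatment. Of all genes, 0.759% were called with marked spots left out and 0.901% with them kept, so 0 is near these shares. With marked spots kept, 49.4% of all genes had a difference above 0. Of the assembly factors of complexes I to V, 12 of 18, 0 of 4, 4 of 6, 16 of 23 and 3 of 5 tested genes had a difference above 0 with marked spots kept, with medians of 0.04, -0.07, 0.08, 0.05 and 0.03. The complex I list includes Dmac2 and the complex V list Dmac2l, which are members here too. The genes with the smallest p in these lists were Ecsit (0.17 ± 0.08), Sdhaf1 (-0.11 ± 0.07), Uqcc1 (0.21 ± 0.08), the copper chaperone Sco2 (0.33 ± 0.14) and Atpaf2 (0.13 ± 0.06). With marked spots left out, that of the complex I list was Acad9 (0.15 ± 0.08 with them kept). The 4 assembly factors of complex II lay below 0 while its 4 subunits lay above.

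Of the electron carriers and coenzyme Q synthesis genes, 13 of 17 were above 0 (median 0.10), led by Etfdh, which feeds electrons of fatty acid oxidation into coenzyme Q (0.27 ± 0.08, limma adjusted p = 0.135), and with marked spots left out by Pdss2 (0.27 ± 0.10). Of the citric acid cycle genes 13 of 14 were above 0 (median 0.15), with Suclg1 at 0.25 ± 0.06 (limma adjusted p = 0.0779). With marked spots left out, 7 of 8 of these genes were above 0, and Idh3b had the smallest p. Of the mitochondrial ribosomal proteins 71 of 80 were above 0 (median 0.09), with Mrpl45 at 0.27 ± 0.09. Of the transport proteins for ADP, ATP and phosphate and the uncoupling proteins 5 of 8 were above 0 (median 0.02), with Slc25a4, the muscle form of the ADP/ATP carrier, at 0.47 ± 0.33.

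The regulators of mitochondrial gene expression showed no common sign, with 8 of 14 above 0 and a median of 0.02. Tfam, which packages and transcribes mitochondrial DNA, had the smallest p, at 0.21 ± 0.06 (limma adjusted p = 0.111). Of the mitochondrially encoded subunits of complexes I, III, IV and V, 8 of 12 were above 0 and the median was 0.11. ND3 was at -0.31 ± 0.09 (limma adjusted p = 0.135), the lowest of these, and ND6 at 0.38 ± 0.14, the highest.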

How the data were processed

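Liver RNA of 18 mice was hybridised to 18 Agilent arrays in 1 colour (Cy3), 8 on linseed and 10 on palm. The deposited intensity values are processed signals of Agilent Feature Extraction 9.5.3.1, per the file headers, background-subtracted and detrended within each array and not scaled between arrays, with 0 or 1 marks per spot. The authors' deposited value table holds log2 values, made with limma per the submitters' processing notes, whose centring is not stated, and it served as an alternative. 

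Here the log2 signal was set relative to each array's 75th percentile over non-control probes. Spots marked as non-uniform or population outliers were left out, or kept, after scaling. Probes needed a signal well above background on 8 or more arrays and a value on 6 or more per diet, and the brightest such probe stood for its gene. The difference of the diet means was tested two-sided with limma's lmFit and eBayes (limma 3.58.1, R 4.3.3), and p-values were adjusted over all genes after Benjamini and Hochberg, with a threshold of 0.05. The fit was also run on simulated arrays with known differences. Their values were drawn independently, with no slide effect and no spots left out, so that run does not test those features. Probes were named through RefSeq accessions (111 of 113 member probes) or symbols (2). The p-values measure the spread between arrays, 1 per mouse, with no term for slide. Mouse and array cannot be told apart in that spread. The fitted correlation of arrays on a slide was 0.22 with marked spots left out and 0.21 with them kept. Array number and spot marks limit the precision.

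Named genes were core subunits, the 3 smallest p-values per complex in each treatment, the largest difference per complex and tissue isoforms. Ndufa7 was outside that rule, and 1 member is not reported here. Members and lists were chosen with earlier results of these data known. Alternatives changed the scaling, background correction, dim-probe filter, probe choice, slide and replicate blocks, eBayes settings and arrays used. Of 11 marker lists of liver and other cell types, 0 genes were called in either treatment. Among all genes 0.759% were called with marked spots left out and 0.901% with them kept. The largest difference among markers was that of Cfd, of adipocytes (2.54 ± 0.89, limma adjusted p = 0.262 with marked spots kept), and 0 of 7 striated muscle markers passed the filter.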

Additional observations from a re-analysis of the deposited data

Results flagged for a closer look

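In 3 of the 42 genes named by rule, 1 array lay far from the others of its diet, with a gap to its nearest neighbour above the critical share of the group's range (Dixon's test at 95%) in 4 of 96 groups checked. Chance flags about 1 in 20 groups. Atp5a1, the alpha subunit of the ATP synthase, was at 5.80 on palm 8, while the other palm arrays were between 6.17 and 6.52. Atp5b, the beta subunit of the same catalytic head, was at 7.23 on palm 8, while the others were between 7.40 and 7.59. Cox6a2, the muscle form of a complex IV subunit, was at 4.27 on linseed 6, while the other linseed arrays were between -3.75 and -1.01. In the palm group Cox6a2 was at -0.83 on palm 2, while the others were between -3.64 and -2.99.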

How the results depend on the processing

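In none of the settings tried was a member called, and the median difference of all members stayed above 0 in each (0.04 to 0.14 with marked spots left out and 0.05 to 0.14 with them kept). The ends of both ranges came from the 75th percentile over unmarked spots and from median scaling. There the median of all genes was -0.04 and 0.04. Members minus all genes was then 0.08 and 0.10 with marked spots left out, and 0.09 in both with them kept. The median difference of complex IV reached -0.003 at its lowest. The number of genes called (121 with marked spots left out, 149 with them kept) was 42 and 46 with the 75th percentile over unmarked spots, 44 and 51 with no filter on dim probes, 200 and 253 with slide as a random block, 21 and 21 without slides 4 and 5, 30 and 31 without slide 1, and 71 and 76 without linseed 6, linseed 7 and palm 2. With slide as a fixed block and marked spots kept it was 186. Without each array in turn it was 51 to 143 and 74 to 166. With the replicate number as a block it was 18 and 26, with 0 members called. Arrays of the same number had correlated deviations above 0.1 for 6 of 8 numbers (range -0.18 to 0.40), and these 6 are the numbers with both arrays on the same slide. As not every number was above 0.1 and only 2 of 8 linseed arrays were closest to the palm array of their own number, the numbers were not taken as pairs. Leaving out slides and arrays was chosen after seeing the data.

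Differences that were small, and those of Cox6a2 (1.03) and Cox7a1 (0.38), changed sign, and none of these was called. With the 75th percentile over unmarked spots, Ndufs1 was at -0.00051, Cox7a2 at -0.045, Atp5l at -0.038, Atp5a1 at -0.0026 and Uqcrh at -0.034. After quantile normalization Ndufb6 was at -0.0045, Atp5l at -0.016 and Uqcrh at -0.028. With normexp Cox6b2 was at -0.016, Atp5a1 at -0.0094 and Uqcrh at -0.0025, and after median scaling Cox7b was at 0.017. In the authors' deposited table Cox7a2 was at -0.0014 and Ndufb6 at -0.0083. With the mean of a gene's probes Atp5l was at -0.022 and Uqcrh at -0.012, and with the replicate block Cox4i2 was at 0.013. Without slides 4 and 5 Cox6a2 was at -0.24, Cox7a2l at 0.0031 and Ndufb6 at -0.024. Without slide 1 Cox6b2 was at -0.028, Uqcrq at -0.022, Atp5l at -0.021 and Uqcrh at -0.013. Without linseed 6, linseed 7 and palm 2 Ndufs1 was at -0.022, Cox7a1 at -0.016 and Ndufb6 at -0.00045. Without each array in turn Ndufb6 ranged from -0.013 to 0.034, Atp5l from -0.052 to 0.052, Atp5a1 from -0.017 to 0.069 and Uqcrh from -0.030 to 0.031. The cause of these changes was not tested. The number of arrays limits the precision of each value, and isoforms not well above background have only a bound.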
